A study of Rattus norvegicus with 3 samples.

Results

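The genes described here mark the supporting cells of the rat pineal gland, namely astrocytes, oligodendrocytes, endothelial cells, and the pericytes and smooth muscle cells around vessels. They were chosen by symbol from a list of 35 marker genes, of which 30 were found among the 16629 genes and unnamed regions, as 36 entries of the deposited tables. Aldh1l1, Kdr, Vwf, Eng and Acta2 were not analysed here. The data were FPKM values (fragments per kilobase of transcript, relative to the mapped fragments in that library, a level that can be compared between genes of different length). They came from adult Sprague-Dawley rats housed in a cycle of 14 h light and 10 h dark, as 3 libraries of poly(A) RNA. Glands were collected in the light at zeitgeber time 7 (ZT7, hours after lights on) for the day library and in the dark at ZT19 for the night library. The mixed-tissue library, from ZT7, pooled equal RNA of 15 tissues: 6 regions of the brain and spinal cord (hindbrain, spinal cord, cortex, hypothalamus, cerebellum and midbrain), the retina and pituitary, and the kidney, heart, liver, adrenal gland, lung, small intestine and skeletal muscle. Each group had 1 library, so no difference below has a replicate check and no p-value is given. The sources used here do not give how many animals gave each library.

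The pineal gland is a neuroendocrine organ in which pinealocytes make melatonin by night, under control of sympathetic nerves that raise cAMP. Between the pinealocytes lie interstitial glial cells that resemble astrocytes, and capillaries whose endothelium is fenestrated in the rat, so that the gland lies outside the blood-brain barrier. Astrocytes buffer ions, water and transmitters, oligodendrocytes wrap central axons in myelin, endothelial cells line vessels, and pericytes and smooth muscle cells surround them. In RNA from whole tissue, fewer cells of a type and less RNA per cell cannot be told apart.

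The night library was the shallowest, with an estimated 60.5% of the fragments of the day library, against 110% for the mixed tissues. The estimate rests on single-exon receptor genes whose lowest values repeat at the worth of 1 fragment. These gave 8.74 fragments per kb at 1 FPKM by day, 5.29 by night, from only 4 genes, and 9.66 in the mixed tissues. A floor of 3 fragments on 1 kb of transcript was 0.343, 0.567 and 0.311 FPKM. Bounds below are exact 95% Poisson limits for a transcript of 1 kb. They cover counting error alone and are narrower for longer transcripts. The pinealocyte genes Tph1 and Asmt, which encode enzymes of melatonin synthesis, were both high in the gland and low in the pool. Tph1 was at 4665 FPKM (day), 4245 (night) and 0.309 (mixed), and Asmt at 395, 506 and 1.45.

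The windows that precede the transcription starts of 3 members are shown because these genes stand for the patterns below. Vim and Gfap encode intermediate filaments of astroglia, and their pineal levels lay at and far below the mixed tissues. Flt1 is an endothelial receptor gene whose window was the only one among the members to hold the cAMP response element TGACGTCA. The sequences are those of RefSeq on build GRCr8, 250 bases that end just before the annotated start, 5′ to 3′ on the gene's strand (Vim chr17:81577011-81577260, plus strand; Gfap chr10:88361662-88361911, minus strand; Flt1 chr12:12333180-12333429, plus strand). Capitals mark TGACGTCA and TATAAA, the letters of a TATA box, wherever they occur in the window.
Vim: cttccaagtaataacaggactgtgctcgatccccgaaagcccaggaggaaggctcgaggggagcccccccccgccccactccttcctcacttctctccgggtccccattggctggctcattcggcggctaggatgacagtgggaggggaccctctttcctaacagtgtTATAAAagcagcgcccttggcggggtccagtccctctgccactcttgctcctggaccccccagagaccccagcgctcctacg
Gfap: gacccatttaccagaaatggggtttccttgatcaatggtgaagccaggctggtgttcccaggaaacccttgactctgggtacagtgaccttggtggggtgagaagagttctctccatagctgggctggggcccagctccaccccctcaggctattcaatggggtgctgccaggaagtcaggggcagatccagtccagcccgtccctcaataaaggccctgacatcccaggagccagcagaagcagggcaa
Flt1: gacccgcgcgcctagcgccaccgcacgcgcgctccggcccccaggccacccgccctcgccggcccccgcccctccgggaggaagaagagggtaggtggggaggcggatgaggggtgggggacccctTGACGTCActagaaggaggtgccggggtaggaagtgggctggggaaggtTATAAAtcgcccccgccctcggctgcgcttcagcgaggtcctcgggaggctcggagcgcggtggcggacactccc

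RefSeq windows were found for 24 of the 35 listed genes (26 windows). TGACGTCA on either strand was in the window of Flt1, at position -124 counted from the start, and in 1.59% of all 33469 windows. TATAAA on either strand was in those of Vim (-82), Flt1 (-75), Plvap (-60) and Olig2, and in 12.9% of all windows. The CArG box, the element bound by serum response factor in smooth muscle genes, was searched as an exact match to CCWWWWWWGG, where W is A or T. This exact pattern and the clock E-box CACGTG were in 0 of the 26 windows, against 1.5% and 5.59% of all windows. Near matches, such as CCCTATATGG in the Acta2 window, were not counted, and Tagln and Myh11 had no window. These 4 motifs do not overlap in the sequences shown. A match is a description of letters and not of a bound site.

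Of the astrocyte genes, Gja1 and Vim were near the level of the mixed tissues in the gland, while Gfap, S100b and Aqp4 were at least 10.3-fold below it. Gja1 (chr20:35409815-35422259; coordinates of genes are on rn4), the main gap junction protein of astrocytes, stood at 81.4 FPKM by day, 61.9 by night and 70.7 in the mixed tissues. Vim (chr17:87847280-87855763), which encodes vimentin, a filament protein of immature and many reactive glia and also of endothelium and mesenchyme, stood at 80.5, 72.9 and 76.3. Both ranked between percentile 96.2 and 97.7 of all genes in each library, and their counting bounds in the pineal and mixed libraries overlapped. Which cells carried the reads of Gja1 and Vim was not tested.

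Gfap (chr10:92059881-92068555), the filament protein used to stain mature astrocytes, was at 10.2 FPKM by day, 5.16 by night and 165 in the mixed tissues. In plain FPKM, it was 16.2-fold lower in the gland than in the mixed tissues by day and 32.01-fold lower by night. S100b, a calcium-binding protein of astrocytes and other glia, was at 21.7, 15.8 and 295 (13.6-fold and 18.6-fold lower). Aqp4, the water channel of astrocyte end-feet, was at 9.13, 4.52 and 93.7 (10.3-fold and 20.7-fold lower). Within the day library the order was Gja1, Vim, S100b, Gfap and Aqp4. The bounds of Gja1 and Vim overlapped, as did those of Gfap (8.20 to 12.6) and Aqp4 (7.24 to 11.4), while S100b (18.8 to 25.1) lay between the pairs. In the mixed tissues the order was S100b, Gfap, Aqp4, Vim and Gja1, so the 2 highest astrocyte members of the gland were the 2 lowest of the pool.

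Other astrocyte genes were split in the same comparison. Of 10 compared by day on the scale of log2(FPKM + 1), 5 were at least 4-fold below the mixed tissues, where 13.2% of all genes were, and 3 lay within 2-fold (median log2 ratio -2.04). Ndrg2, a gene of mature astrocytes, was at 17.8 FPKM by day, 16.5 by night and 253 in the mixed tissues, and Slc1a3, a glutamate transporter, at 4.85, 4.15 and 61.8. The 3 within 2-fold, named after their values were seen, were Slc1a2, the main glutamate transporter of astrocytes (72.6, 58.4 and 74.2), Slc4a4, a bicarbonate transporter (17.4, 20.1 and 17.5), and Id4, a transcriptional regulator (23.3, 19.7 and 19.2).

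**Figure D1:**
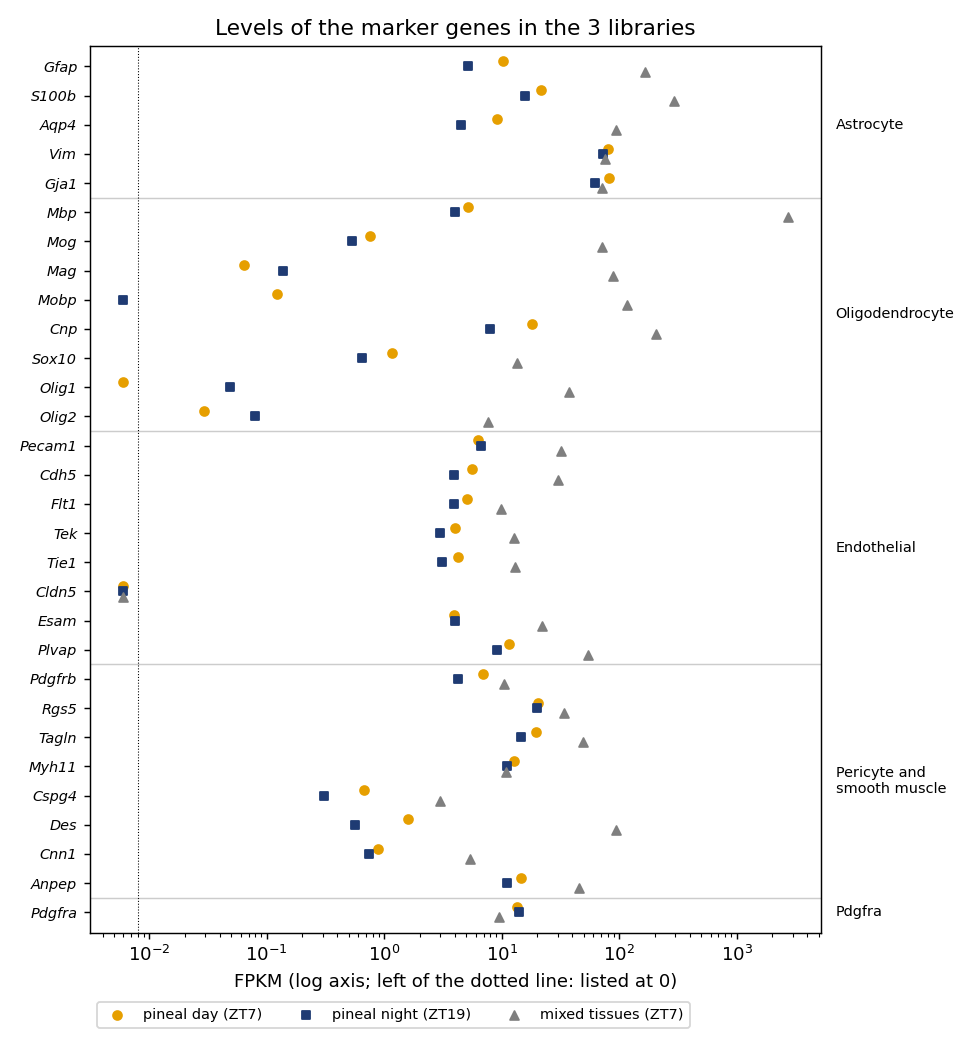
FPKM of the 30 marker genes (log axis) in the day pineal (circles), night pineal (squares) and mixed-tissue (triangles) libraries, 1 point per library, grouped by the cell type each gene marks. Vim, Gja1, Myh11 and Pdgfra lie together in the 3 libraries, while the pineal points of the myelin genes Mbp, Mog, Mag and Mobp lie far to the left of the mixed-tissue points.

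Oligodendrocyte genes were the lowest group of the gland. Their median level was 0.439 FPKM by day and 0.332 by night, against 79.6 in the mixed tissues. In sum the 8 genes made up 0.0121% of all FPKM by day, 0.00623% by night and 1.32% in the mixed tissues. By day 5 of the 8 were under 1 FPKM and by night 6 were. Of the compact myelin and myelin surface proteins, Mbp (myelin basic protein) was at 5.16 FPKM by day, 3.98 by night and 2720 in the mixed tissues, 527-fold and 683-fold lower in the gland. Mog, on the outer surface of central myelin, was at 0.754, 0.527 and 70.9. Mag, an adhesion protein next to the axon, was at 0.0635, 0.137 and 88.2, and Mobp, a myelin protein, at 0.123 by day, listed at 0 by night and at 116 in the mixed tissues. The pineal values of Mag and Mobp, and the night value of Mog, were under the floor of 3 fragments on 1 kb.

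Of the transcription factors of the lineage, Olig1 and Olig2 were under the floor in both pineal libraries and Sox10 was above it. Olig1 was listed at 0 by day and was at 0.0483 FPKM by night and 37.4 in the mixed tissues. Olig2 was at 0.0291, 0.0793 and 7.68. Sox10, a factor that oligodendrocytes share with Schwann cells of peripheral nerves, was at 1.17, 0.643 and 13.4. Cnp (chr10:89519421-89525978), an enzyme of the non-compact cytoplasm of myelin-forming cells, stood apart from its group at 18.2 FPKM by day and 7.93 by night, against 205 in the mixed tissues (11.3-fold and 25.8-fold lower). By day Cnp was 3.52 times the level of Mbp per length, whereas in the mixed tissues Mbp was 13.3 times the level of Cnp.

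Myelin and oligodendrocyte genes outside the members were below the mixed tissues as well. Counts of genes past a fold use log2 ratios of FPKM + 1, which understate the fold change of low genes, for genes that reached 1 FPKM in at least 1 of the 2 libraries. A gene under 1 FPKM in the gland thus entered only through the mixed tissues and could only come out lower. Among all 11934 genes compared by day with the mixed tissues, 61.8% were lower in the gland, 28.9% at least 2-fold lower, 8.32% at least 2-fold higher and 13.2% at least 4-fold lower. Of the 12 compared here, 12 were at least 2-fold and 11 at least 4-fold lower. By day 8 of the 12 were under 1 FPKM. Ugt8, which makes a myelin lipid, was at 0.118 FPKM by day, 0.0486 by night and 74.1 in the mixed tissues. Cldn11, a tight junction gene of myelin that is also made by other cells, was the highest of this list in the gland and above Cnp, at 31.3 FPKM by day, 21.8 by night and 173 in the mixed tissues. It was chosen after its values were seen, as were the other genes so described below. Among 7 Schwann cell genes compared by day, 5 were at least 2-fold below the mixed tissues and 2 within 2-fold. Pmp22, a peripheral myelin protein also made by other cells, was at 10.6, 9.42 and 52.3, and Gjb1, a gap junction gene of Schwann cells and liver, was listed at 0 in both pineal libraries and at 47.1 in the mixed tissues. The 2 within 2-fold, chosen after their values were seen, were higher in the gland. Cdh19, an adhesion gene of Schwann cells and their precursors, was at 2.72 FPKM by day, 4.15 by night and 1.12 in the mixed tissues, with bounds above those of the mixed tissues by night but not by day. Ngfr, a neurotrophin receptor, was at 2.11, 2.58 and 1.72, with overlapping bounds.

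Endothelial genes with values above 0 lay between percentile 56.5 and 75.5 of all genes by day. These 7 genes ranged from 3.92 to 11.5 FPKM by day, from 2.99 to 9.15 by night and from 9.83 to 53.9 in the mixed tissues. Plvap (chr16:18668569-18678431), which forms the diaphragms of fenestrated endothelium, led them in each library, at 11.5 FPKM by day (bounds 9.34 to 14.0), 9.15 by night (6.75 to 12.1) and 53.9 in the mixed tissues. It was 4.69-fold below the mixed tissues by day and 5.89-fold by night. The day bounds of Plvap lay above those of the other 6 genes, whereas those of the 6 overlapped each other.

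Adhesion genes of endothelial junctions followed. Pecam1 (CD31) was at 6.23 FPKM by day, 6.62 by night and 31.9 in the mixed tissues, Cdh5 (VE-cadherin) at 5.57, 3.90 and 30.2, and Esam at 3.92, 4.0 and 22.2. By day these 3 were 5.12-fold, 5.42-fold and 5.66-fold below the mixed tissues. The Pecam1 entry spans only chr10:96056220-96057224 (rn4), so its value describes a short stretch. Cldn5, a tight junction gene, is placed on an unordered part of chromosome 11 in the tables and listed at 0 in all 3 libraries. It is known from brain vessels, which the pool contains, and its values were not read as levels.

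The receptor genes were nearer the mixed tissues than the junction genes. Flt1, a VEGF receptor, was at 5.08 FPKM by day, 3.96 by night and 9.83 in the mixed tissues (1.93-fold and 2.48-fold lower). Tie1 was at 4.21, 3.12 and 13.1, and Tek, the angiopoietin receptor, at 3.98, 2.99 and 12.7, which put them 3.11-fold and 3.20-fold below the mixed tissues by day. The counting bounds of all 7 genes lay below those of the mixed tissues by day and by night, where 37.4% and 35.8% of all genes did so. Of 16 other endothelial genes compared, all 16 were below the mixed tissues by day, 13 of them by at least 2-fold and 3 by at least 4-fold (median log2 ratio -1.54). The 3 were S1pr1, a sphingolipid receptor (3.85 FPKM by day and 34.97 in the mixed tissues), Icam1, a leukocyte adhesion gene (2.73 and 18.5), and Ramp2, an adrenomedullin receptor subunit (11.6 and 64.0). Among all genes compared by day, 61.8% were lower, 28.9% at least 2-fold lower and 13.2% at least 4-fold lower. Of 7 genes of the brain barrier list, 5 were at least 2-fold below the mixed tissues and 2 within 2-fold. Slco1c1, a thyroid hormone carrier of brain capillaries, was at 0.595 FPKM by day and 14.1 in the mixed tissues. The 2 within 2-fold, chosen after their values were seen, were higher in the gland, with counting bounds above those of the mixed tissues by day and by night. Slc2a1, a glucose transporter, was at 37.5 FPKM by day, 43.2 by night and 25.8 in the mixed tissues, and Slc7a5, an amino acid transporter, at 22.4, 45.2 and 15.8. Both are also made by many cells outside vessels.

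Among ligands and receptors of vessel growth and tone, 10 of 17 ligands and 12 of 14 receptors were below the mixed tissues by day, where 61.8% of all genes were, with median log2 ratios of -0.71 and -1.03. The share of lower ligands was near that of all genes. The receptor list includes 5 of the 30 members. Pdgfa, a ligand of Pdgfra, was at 1.80 FPKM by day, 1.29 by night and 10.8 in the mixed tissues, and the peptide ligand Apln at 1.46, 0.472 and 9.21. Of the 7 ligands that were higher by day, Pdgfd, a ligand of Pdgfrb, was at 5.21, 4.96 and 2.89, and Tgfb3 at 5.59, 4.62 and 3.71. Both were chosen after their values were seen, and their bounds overlapped those of the mixed tissues. Acvrl1, a receptor of the TGF-beta family in endothelium, was at 3.31, 2.29 and 22.8.

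Genes of pericytes and smooth muscle had the median ratio nearest to the mixed tissues among the 4 groups, but Des, Cnn1 and Cspg4 were 58.7-fold, 6.07-fold and 4.49-fold lower by day in plain FPKM. Rgs5, a regulator of G protein signalling and a pericyte marker, was at 20.5 FPKM by day, 19.9 by night and 33.7 in the mixed tissues (1.64-fold and 1.70-fold lower). Pdgfrb, the receptor that keeps pericytes on vessels, was at 6.87, 4.24 and 10.4, with bounds that overlapped those of the mixed tissues by day (5.24 to 8.84) but not by night. Anpep, a surface peptidase of pericytes that is also abundant in kidney and intestine, was at 14.7, 11.2 and 45.6. Cspg4 (NG2), a proteoglycan of pericytes and oligodendrocyte precursors, was at 0.667, 0.304 and 2.998, with the night value under the floor.

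The contractile genes spread widely. Myh11 (chr10:666657-776540), smooth muscle myosin, was at 12.7 FPKM by day, 11.1 by night and 10.9 in the mixed tissues, with overlapping bounds. Tagln, an actin-binding protein of smooth muscle, was at 19.7, 14.6 and 49.3, and Cnn1 (calponin) at 0.885, 0.747 and 5.37. Des, the filament protein of all muscle, was at 1.60, 0.561 and 94.0. Heart and skeletal muscle were both in the pool. By day Myh11 thus stood at 14.4 times the level of Cnn1 per length, against 2.02 times in the mixed tissues. Pdgfra, a receptor of oligodendrocyte precursors and of fibroblasts, was higher in the gland at both times than in the mixed tissues, at 13.6 (day) and 14.0 FPKM (night) against 9.52, although its bounds (11.3 to 16.3 by day and 10.997 to 17.6 by night) overlapped those of the mixed tissues. Of the 10 fibroblast and meningeal genes, 5 were above and 5 below the mixed tissues by day (median log2 ratio -0.01), and whether such cells carried the Pdgfra reads was not tested.

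Other mural genes lay on both sides of the mixed tissues. Of 13 compared by day, 5 were at least 2-fold below the mixed tissues, 7 within 2-fold and 1 at least 2-fold above. Among all genes compared, 28.9% were at least 2-fold lower and 8.32% at least 2-fold higher. The 1 above was Lmod1, an actin filament nucleator of smooth muscle, at 49.3 FPKM by day, 23.8 by night and 2.44 in the mixed tissues. Tpm2, a tropomyosin of muscle, was at 5.08, 2.81 and 110, and Actg2, an enteric smooth muscle actin, at 2.30, 1.78 and 25.2.

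Over all cell types, 16 of 29 members compared were at least 4-fold lower and 0 at least 4-fold higher in the gland than in the mixed tissues by day. Among all genes compared, 13.2% were at least 4-fold lower and 2.29% at least 4-fold higher. The 16 were 8 of 8 oligodendrocyte genes (median log2 ratio -5.31), 3 of 5 astrocyte genes (-3.22), 4 of 7 endothelial genes (-2.14) and 1 of 8 pericyte and smooth muscle genes (-1.27). Of the 16, Mog, Mag, Mobp, Olig1 and Olig2 were under 1 FPKM by day. These were compared through the mixed tissues alone and could only come out lower. By night the same held for Sox10 and Des as well. The median over the members was -2.18 and over all genes -0.27. By night, against the same mixed library, 16 of 29 were again at least 4-fold lower and 0 higher, where 14.4% and 3.09% of 11951 genes were. The median ratios by night were -5.38, -4.10, -2.11 and -1.65 for the 4 groups in the same order. The 5 members within 2-fold of the mixed tissues by night (Vim, Gja1, Rgs5, Myh11 and Pdgfra) were also within 2-fold by day, when Flt1 and Pdgfrb joined them.

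**Figure D2:**
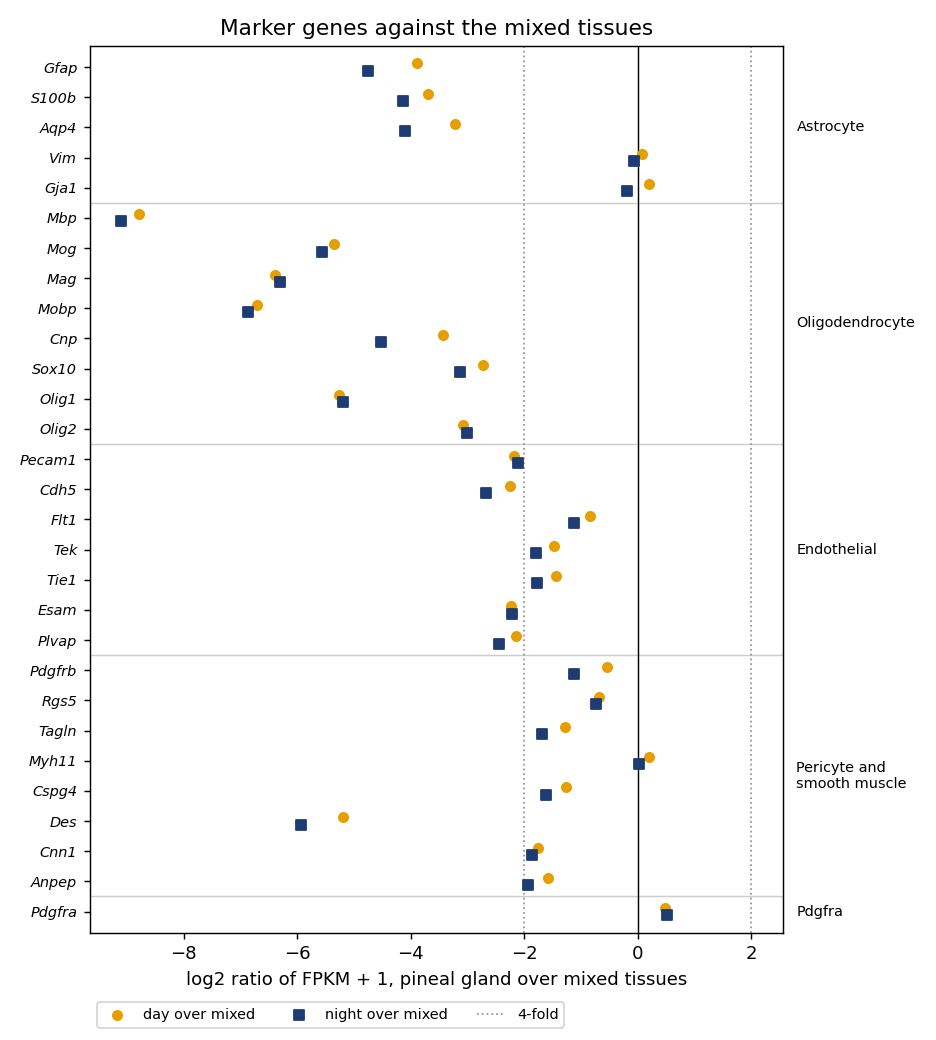
Log2 ratio of FPKM + 1 of each marker gene in the pineal gland over the mixed tissues, for the day (circles) and the night library (squares), 1 value each; the dotted lines mark a 4-fold difference. The 8 oligodendrocyte genes lie left of the 4-fold line, and Vim, Gja1, Myh11 and Pdgfra lie near 0.

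Between night and day the members differed little in size but mostly in 1 direction. Of the 30 genes, 22 reached 1 FPKM in at least 1 pineal library and were compared; Mog, Mag, Mobp, Olig1, Olig2, Cldn5, Cspg4 and Cnn1 did not. Lower values by night were found for 19 of the 22, against 61.8% of the 9826 genes compared. Sox10 and Des reached 1 FPKM by day alone, so the filter fixed their direction. Relative to the median of all genes, 18 of the 22 were lower, where 50% of genes are by construction. The median log2 ratio was -0.35 for the members and -0.11 for all genes. At least 2-fold apart was 1 member, Cnp, on the lower side (log2 -1.10), where 2.11% of all genes were as much lower and 4.18% as much higher. By cell type the median was -0.43 over 5 astrocyte genes, -0.40 over 3 oligodendrocyte genes, -0.30 over 7 endothelial genes and -0.39 over 6 pericyte and smooth muscle genes. The -0.40 is the value of Sox10, at 1.17 FPKM by day and 0.643 by night, with overlapping bounds.

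In 4 genes the counting bounds by night lay below those by day, where 7.67% of all genes did so and 8.35% had bounds on the higher side. Cnp was at 18.2 FPKM by day (15.5 to 21.2) and 7.93 by night (5.71 to 10.7), 2.29-fold lower. Aqp4 was at 9.13 (7.24 to 11.4) and 4.52 (2.89 to 6.73), 2.02-fold lower in FPKM but within 2-fold on the FPKM + 1 scale. Gfap was at 10.2 (8.20 to 12.6) and 5.16 (3.41 to 7.49), 1.98-fold lower. Gja1 was at 81.4 (75.5 to 87.6) and 61.9 (55.4 to 68.96), 1.32-fold lower. Of these 4 genes, 3 are in the astrocyte list, though which cells carried their reads was not tested. The astrocyte members with the smallest ratios were Vim (log2 -0.14) and Gja1 (-0.39).

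In the other 18 genes the bounds overlapped at a length of 1 kb. Overlap of separate bounds does not show that the values are equal, and the differences themselves were not tested. The widest of them was Des, at 1.60 and 0.561 FPKM (log2 -0.74), whose night value lay just under the floor, followed by Pdgfrb (-0.59). Among endothelial genes Cdh5 (-0.42), Tie1 (-0.34), Tek (-0.32), Plvap (-0.30) and Flt1 (-0.29) were lower by night by similar ratios, while Pecam1 (0.07) and Esam (0.03) were slightly higher. Rgs5 (-0.05) and Pdgfra (0.04) were also near 0.

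**Figure D3:**
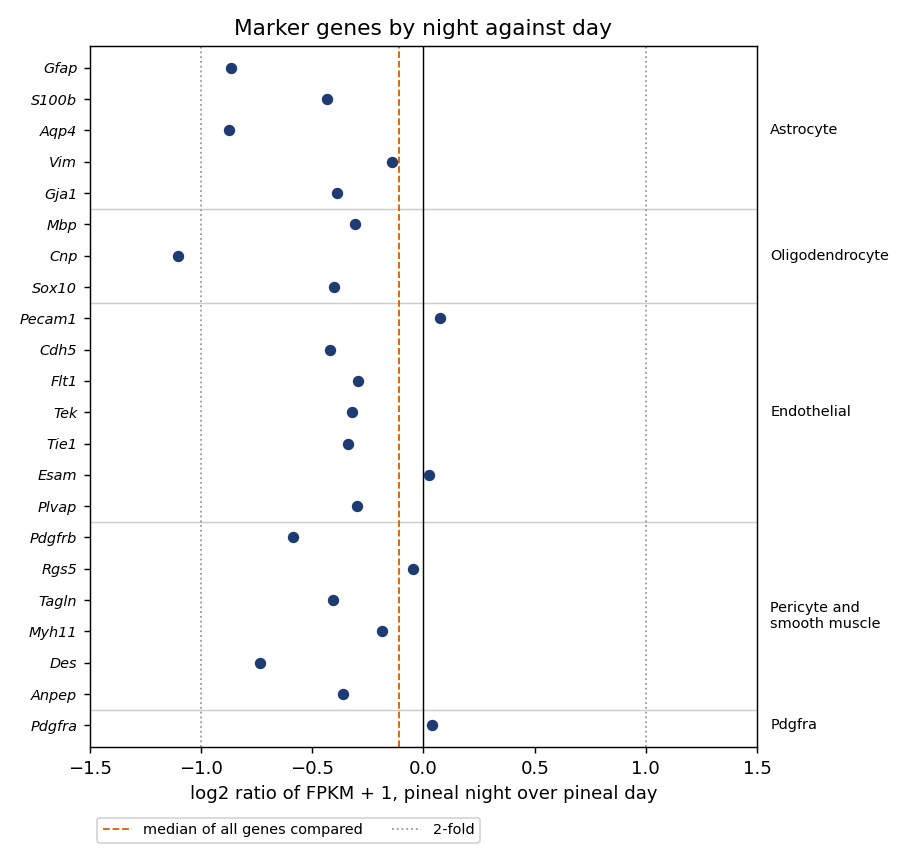
Log2 ratio of FPKM + 1, pineal night over pineal day, of the 22 marker genes that reached 1 FPKM by day or by night, 1 value per gene; the dashed line is the median of all genes (-0.11) and the dotted lines mark 2-fold. Points lie left of 0 for 19 genes, and Cnp lies past the 2-fold line.

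The summed level of the 5 astrocyte genes was 203 FPKM by day and 160 by night, of the 8 oligodendrocyte genes 25.5 and 13.3, of the 8 endothelial genes 40.5 and 33.7, and of the 8 pericyte and smooth muscle genes 77.6 and 62.5. Within the oligodendrocyte sums, Cnp alone was at 18.2 by day and 7.93 by night. Marker lists of other cells were read beside them. The 10 fibroblast and meningeal genes summed to 388 FPKM by day and 299.9 by night, with 9 of 10 lower by night. The 10 microglial genes summed to 81.4 and 78.2, with 5 of 10 lower, and the 10 pinealocyte genes to 7255 and 9470, with 2 of 10 lower. The pinealocyte sum includes Aanat and Bsx, which are known to be higher by night. Of 9 neuronal genes, 5 were under 1 FPKM by day and by night, among them Nefl, a neurofilament gene (0.0688 and 0.144), and Gad1, which makes GABA (0.115 and 0.0443). The highest was Slc17a7, a glutamate transporter that pinealocytes are known to make, at 582 by day and 499 by night. The others that reached 1 FPKM were Syt1 (105 and 131), Map2 (17.3 and 34.4) and Nefh (4.68 and 5.07). What part cell makeup or depth had in the night values was not tested.

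Lists of further genes of the same cell types gave like medians for endothelium and mural cells. The median night over day log2 ratio was -0.30 for 13 other endothelial genes (10 lower), -0.29 for 12 other mural genes (9 lower), -0.28 for 4 other oligodendrocyte genes (4 lower) and -0.19 for 9 other astrocyte genes (7 lower). All of them reached 1 FPKM by day, but by night only 12, 10, 3 and 8 did, in the same order. Those that reached it by day alone could only come out lower. Among these genes, 3 were at least 2-fold apart, all in the mural list and not in the same direction. Mcam, an adhesion protein of endothelium and pericytes, was at 34.6 FPKM by day and 86.5 by night, Mylk, the kinase of smooth muscle myosin, at 23.9 and 59.9, and Lmod1 at 49.3 and 23.8. Barrier and Schwann cell lists did not share the lower median. All 3 barrier genes compared were higher by night (median 0.21), with Slc7a5 at 22.4 and 45.2, and 2 of 4 Schwann cell genes were lower (median 0.02). In the fibroblast list Slc6a13, a GABA transporter of meninges, was at 18.5 by day and 4.74 by night.

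**Figure D4:**
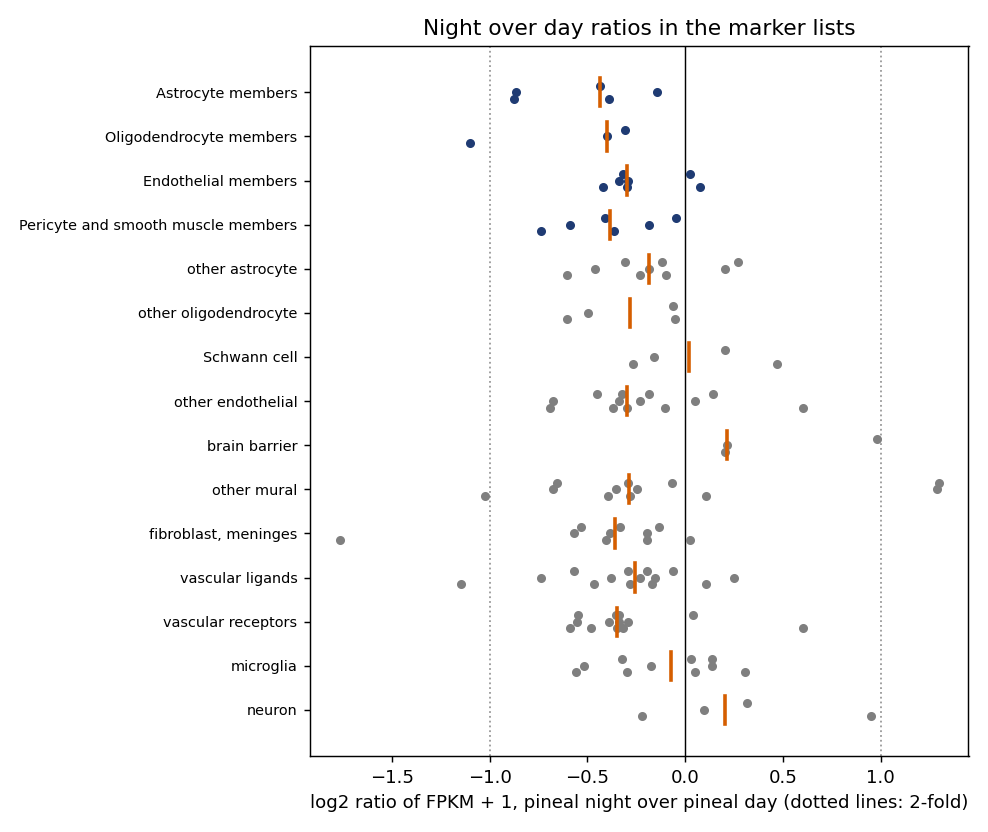
Log2 ratio of FPKM + 1, pineal night over pineal day, for the compared genes of each marker list, 1 point per gene (dark points are the members without Pdgfra, grey points genes of other lists), with the list median as an orange bar. The 4 member groups have medians between -0.43 and -0.30, while Mcam and Mylk stand more than 2-fold to the right in the other mural list.

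Aqp4 and Mbp were sums of several entries that share most of their span, and the split among entries differed between libraries. The Aqp4 entry with the longer span (chr18:6626313-6642766, rn4) held 99.9% of the sum by day, 15.5% by night and 41.5% in the mixed tissues, at 9.12, 0.702 and 38.9 FPKM. The other entry (chr18:6626313-6641850) was at 0.00716, 3.82 and 54.9. The bounds of the Aqp4 sums overlapped neither between night and day nor with the mixed tissues. How the shared reads were divided is not given, so the split is uncertain. Of the 6 Mbp entries, 5 share chr18:79025589-79057329, and the highest of them held 57.7% of the sum by day, 65.9% by night and 70.7% in the mixed tissues. The sixth, which starts upstream at chr18:78943608, was at 0.412, 0.2503 and 6.22 FPKM.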

How the data were processed

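FPKM values were deposited by the authors for 3 libraries, 1 per group. Per the submitters' processing notes, TopHat 1.3.1, Cufflinks 1.2.0 and build rn4 were used. The sources used here do not give their options, filters or handling of shared reads. Per the labels' protocols, poly(A) RNA from 10 µg of total RNA was reverse transcribed with random primers, amplified over 15 cycles and sequenced as paired 51-base reads. FPKM is relative to each library's total, so a rise of abundant genes lowers the rest.

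All 51267 values of the series table matched those of the single-sample files exactly. The 17089 entries were summed by symbol to 16629 genes and regions; starts are counted from 1. Log2 ratios used a pseudocount of 1 and genes with FPKM of at least 1 in 1 of the 2 libraries, with 2-fold (night against day) and 4-fold (against mixed tissues) limits. Depth was estimated from 1326 single-exon receptor genes with spans from 800 to 1100 bp. Scripts (Python 3.11.15, pandas 2.3.3, scipy 1.17.1) were tested on simulated data. All members may be named; from each of 12 further lists, up to 4 genes past the limit were eligible if the higher of both libraries reached FPKM 5. Nefl, Gad1, Slc17a7, Tph1, Asmt, Aanat and Bsx are named as cell type checks. Syt1, Map2 and Nefh are named as the other neuronal genes that reached 1 FPKM in the gland. The members and lists were chosen with earlier results of these data known; the motifs other than the CArG box were chosen after values were seen. Alternatives changed the pseudocount, the filter, the centring and the handling of entries. 1 gene of the further oligodendrocyte list is not reported here and was left out of its counts.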

Additional observations from a re-analysis of the deposited data

How the results depend on the processing

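The direction of the members as a whole did not turn under another pseudocount (0.1 or 5), no filter, a filter at FPKM 5, centring on the median of all genes, or the highest entry of each symbol in place of the sum. The highest entry was taken in each library separately, so for Aqp4 it was a different entry by day and by night. Members lower by night numbered 18 of 22 with centring, 23 of 29 without a filter and 15 of 17 at FPKM 5. The count of members at least 2-fold lower by night, 1 as reported, was 2 with a pseudocount of 0.1 (Cnp and Des), 2 with the highest entry (Cnp and Aqp4), 0 with a pseudocount of 5 and 0 with centring, so the call of Cnp rests on the scale. The count at least 4-fold below the mixed tissues by day, 16 as reported, was 18 with a pseudocount of 0.1, 10 with a pseudocount of 5 and 12 with centring; by night it ranged from 11 to 21. No member was at least 2-fold higher by night or at least 4-fold above the mixed tissues in any of these settings. No paired analysis was possible because each group had 1 library. Depth limits the low genes: 8 members by night and 5 by day were under the floor of 3 fragments on 1 kb.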
